A study of Mus musculus with 66 samples.

Results

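The replication-dependent histone genes were followed in C2C12 cells, an established line of mouse myoblasts, after knockdown of single subunits of the Paf1 complex (Paf1C), which travels with RNA polymerase II. They were taken as every gene whose symbol begins with Hist1h, Hist2h, Hist3h or Hist4 in the RNA-seq gene table or in the 3'READS table of cleavage and polyadenylation (pA) sites, which gave 68 genes of the 18511 listed in either table. RNA-seq listed 37 of them among 9999 genes, 3'READS listed 60 among 15856, and 29 were in both. By histone type, 6 encode linker histone H1, 18 encode H2A, 19 encode H2B, 13 encode H3 and 12 encode H4. The Hist1 cluster on chromosome 13 holds 53 of them, the Hist2 cluster on chromosome 3 holds 11, and the remaining 3 and 1 lie on chromosomes 11 and 6. Cells received 50 nM of siRNA for 48 h, and both assays have the same groups: control siRNA (siCtrl, batches 1 and 2), siRNA against Paf1 (siPaf1, batches 1 and 2), against Cdc73 (siCdc73, batches 1 and 2) and against Ski8 (siSki8, batch 2 only), or 7 libraries per assay. The gene for Ski8 is listed as Wdr61. The labels name the batches but no separate cultures, so p-values measure only the spread between these libraries, which may be technical, and the 3 knockdowns are compared with the same siCtrl libraries.

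Replication-dependent histone mRNAs supply the histones that package newly copied DNA, and dividing cells make them mainly in S phase. Unlike other mRNAs, they normally end a few bases after a conserved stem-loop just past the stop codon: the loop is bound by the stem-loop binding protein Slbp, the RNA is cut with the help of the U7 small nuclear RNP, and no poly(A) tail is added. Many of these genes also carry ordinary poly(A) signals farther downstream, and transcripts that run past the stem-loop can be cut and polyadenylated there. The study's methods describe RNA-seq after removal of ribosomal RNA, which keeps tailed and untailed mRNA, and do not say whether every batch was made that way. 3'READS instead counts pA site-supporting (PASS) reads, which must carry at least 2 Ts beyond the genome match, so that it reads only ends with added A residues. Levels are given as CPM, the deposited reads scaled to the library's total over all genes.

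The stem-loop was searched on the coding strand in the 500 bases after each annotated stop codon, as 16 bases that start with GG, have TT at positions 7 and 8, end with CC and form all 6 base pairs. It was found in 60 of 65 annotated histone genes of the group (92.3%) and in 33 of 22546 other genes (0.146%, H2afx, a variant H2A gene, among them). The loop ended 37 to 74 bases after the stop codon, with a median of 46. These stem-loops show how alike the sequences are in genes that later moved in opposite directions (mouse NCBIM37/mm9; the 16 bases of the stem-loop are in capitals, with 4 bases before and 10 after).
Hist1h2ag, H2A, chr13:22134342-22134371, minus strand: caaaGGCTCTTTTCAGAGCCacctaacctt
Hist1h2bk, H2B, chr13:22128165-22128194, plus strand: caaaGGCTCTTTTAAGAGCCactaaaccac
Hist1h4d, H4, chr13:23673815-23673844, plus strand: caaaGGCCCTTTTCAGGGCCactaccttct
Hist1h1c, H1, chr13:23831377-23831406, plus strand: aaaaGGCTCTTTTCAGAGCCaccactccca
Hist3h2a, H2A, chr11:58768670-58768699, plus strand: caaaGGCTCTTTTCAGAGCCacccacaacc
The form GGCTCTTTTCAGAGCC was shared by 39 genes, all of types other than H4, and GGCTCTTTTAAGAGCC by 9, again none of them H4. The 11 H4 genes with a match had other stems: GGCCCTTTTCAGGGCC in 7, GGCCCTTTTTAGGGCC in 2 and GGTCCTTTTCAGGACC in 2. No match was found for Hist1h2an, Hist1h3g, Hist1h4a, Hist2h2bb and Hist2h2be, and the first 3 of these had a near match ending 46 to 48 bases after the stop codon. The annotated transcript of Hist2h2bb is spliced to a distant stop codon, and an exact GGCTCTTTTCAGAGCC ends before that codon, at chr3:96074109. The only pA site of Hist2h2bb lies 6 bases past it, with 9 and 5 reads in siCtrl, 8 and 0 in siPaf1, 1 and 4 in siCdc73 and 1 in siSki8, and is counted below among the sites without a stem-loop match.

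The 60 genes of the 3'READS table had 224 sense-strand pA site entries at 214 distinct positions, since 10 positions were listed under a pair of genes, 8 of them under both Hist2h3c1 and Hist2h3c2-ps. Relative to its own gene's stem-loop, a site was called a stem-loop end when it lay within 30 bases after the loop, downstream when it lay farther on, and upstream when it lay before. There were 39 stem-loop ends in 38 genes, 110 downstream sites in 38 genes, 39 upstream sites and 26 sites without a match of their gene on their strand. Among the 26 were the 8 listed under Hist2h3c1 and Hist2h3c2-ps and a site of Hist2h2aa1 with 1 read in siSki8. The matches of Hist2h3c1 and Hist2h2aa1 lay on the other strand. The stem-loop ends lay tightly together: their median distance past the loop was 5 bases, and 1923 of their 1972 reads (97.5%) fell 4 to 7 bases past it. The downstream sites lay 49 to 8910 bases past the loop, with a median of 461.5. A poly(A) signal, AATAAA or ATTAAA within 40 bases before the site on the same strand, stood before 0 of 39 stem-loop ends, 37 of 110 downstream sites (33.6%) and 58.8% of the 55965 sense sites of all genes. The 30 bases that end at the main sites other than stem-loop ends were as follows, with the signal in capitals where there was one. Hist2h2be, the first, had no stem-loop match.
Hist2h2be, H2B, chr3:96027635-96027664, plus strand: ttattAATAAAgttaccgattagtttcaaa
Hist1h1c, H1, 836 bases past the loop, chr13:23832203-23832232, plus strand: atgcttctAATAAAaagcgtttagttttca
Hist1h2be, H2B, 206 bases past the loop, chr13:23677194-23677223, minus strand: tgttctgAATAAAgaaccccgaacgtttca
Hist1h2bg, H2B, 1670 bases past the loop, chr13:23665368-23665397, plus strand: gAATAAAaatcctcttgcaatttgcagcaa
Hist1h4i, H4, 330 bases past the loop, chr13:22132505-22132534, minus strand: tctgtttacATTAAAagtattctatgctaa
Hist1h3a, H3, 50 bases past the loop, chr13:23853709-23853738, minus strand: tggctgtaatttactccatccttaaacgaa
Hist3h2a, H2A, 424 bases past the loop, chr11:58769084-58769113, plus strand: ataaatgttctgttacaaggcgatttacaa

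RNA-seq libraries held 2796693 to 8160386 reads in genes and 3'READS libraries 5302728 to 14340927 PASS reads. The targeted genes were lower in the matching knockdowns: in RNA-seq, Paf1 was at 120 and 163 CPM in siCtrl and 22.9 and 31.8 CPM in siPaf1, Cdc73 at 122 and 100.3 CPM and then 14.6 and 19.3 CPM in siCdc73, and Wdr61 at 55.7 and 132 CPM and then 5.02 CPM in siSki8. The myoblast genes Vim, Des, Cdh15 and Myf5 were expressed throughout, while Myod1 was near 0 (0 to 0.598 CPM in 3'READS). Markers of other cell types summed to 1.25 and 2.40 CPM in siCtrl, 3.41 and 3.22 CPM in siPaf1, 20.7 and 54.6 CPM in siCdc73 and 7.72 CPM in siSki8 over the 5 listed in RNA-seq, nearly all of it in siCdc73 from the keratin gene Krt8 (18.8 and 54.03 CPM), whose part in the histone results was not tested. The batches of RNA-seq stood apart for histone genes. Together they had 153 reads (23.9 CPM) in the siCtrl library of batch 1 and 4098 reads (702 CPM) in that of batch 2. Over the 24 histone genes that passed the filter on low counts, batch 2 exceeded batch 1 in siCtrl by a median of 4.85 on the log2 scale, against -0.02 over all 5969 genes compared. The difference ran from 0.71 for Hist2h2be to 7.43 for Hist1h2bm, and 11 of the 14 genes above that median were histone genes. In 3'READS the same comparison gave a median of -0.01 over 33 histone genes, and 18 other S-phase genes in RNA-seq had no such gap (5470 and 6232 CPM in siCtrl, summed). Whether the RNA of both batches was selected alike was not tested, which limits the batch 1 levels and the ratios of ends to RNA-seq reads in that batch. RNA-seq results on histone genes are therefore given within each batch as well.

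The polyadenylated ends of histone genes moved away from the stem-loop when Cdc73 was knocked down. Reads at the stem-loop ends summed to 45.7 and 57.7 CPM in siCtrl, 27.7 and 17.2 CPM in siPaf1, 11.5 and 5.03 CPM in siCdc73 and 59.3 CPM in siSki8. Both siCdc73 libraries were the lowest, below both siPaf1 libraries, which in turn were below both siCtrl libraries, and the siSki8 library was level with siCtrl. Within batch 1 the siCtrl level was 3.96 times that in siCdc73, and within batch 2 it was 11.5 times. Downstream sites of the same gene family summed to 39.5 and 39.6 CPM in siCtrl, 22.8 and 29.7 CPM in siPaf1, 93.6 and 104 CPM in siCdc73 and 41.4 CPM in siSki8. Here siCdc73 was 2.37 and 2.62 times its batch's siCtrl, while both siPaf1 libraries lay below both siCtrl libraries. With 2 libraries against 2, an exact two-sided permutation test cannot go below p = 0.333, which each of these 4 comparisons reached. Fewer cells with these transcripts and less RNA per cell cannot be told apart in bulk samples.

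**Figure D1:**
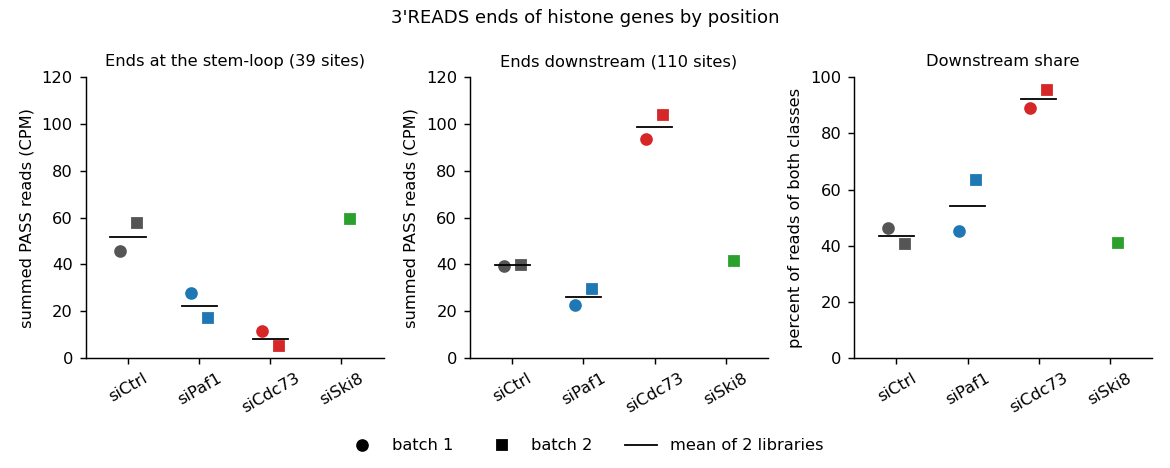
Summed PASS reads in CPM at stem-loop ends (left) and at sites farther downstream (middle), and the downstream sites' percent of the reads of both classes (right); each point is a library, circles batch 1 and squares batch 2, and lines are means of 2 libraries. The siCdc73 libraries are the lowest at the stem-loop ends (11.5 and 5.03 CPM) and the highest downstream (93.6 and 104 CPM).

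As a share of the reads of both classes, downstream sites took 46.3% (95% Wilson interval 42.5 to 50.2%) and 40.7% (37.6 to 43.9%) in siCtrl. The share was 45.2% (40.3 to 50.1%) and 63.3% (59.5 to 67.0%) in siPaf1, 89.0% (86.2 to 91.4%) and 95.4% (94.2 to 96.3%) in siCdc73, and 41.1% (37.8 to 44.5%) in siSki8. The intervals cover counting error only. The 2 siCdc73 values lay above all the others, the siSki8 value lay between the siCtrl values, and the siPaf1 libraries disagreed, with batch 1 between the siCtrl values and batch 2 above them (exact permutation p = 0.333 for siCdc73 and 0.667 for siPaf1). The siPaf1 share of batch 2 leaned on Hist3h2a, which has no stem-loop end and gave 231 of the 397 downstream reads there. In siCtrl it gave 39 of 291 and 69 of 388, so the pooled share also carries the level of that gene. Sites without a stem-loop match on their strand went from 16.95 and 13.99 CPM in siCtrl to 24.99 and 29.8 CPM in siPaf1, 125 and 115 CPM in siCdc73 and 18.5 CPM in siSki8. Nearly all of that was Hist2h2be: without it the class held 5.97 and 7.25 CPM in siCtrl, 3.46 and 3.74 CPM in siPaf1, and 6.80 and 12.997 CPM in siCdc73. Upstream sites were few (0.140 to 3.80 CPM) and were lowest in siCdc73, at 1.32 and 0.140 CPM against 3.80 and 2.25 CPM in siCtrl.

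The stem-loop ends were low in siCdc73 for the 4 core histone types. H2A ends at the stem-loop summed to 22.8 and 21.4 CPM in siCtrl, 11.02 and 5.08 CPM in siPaf1, 7.94 and 1.54 CPM in siCdc73 and 16.9 CPM in siSki8. H2B ends summed to 7.19 and 16.3 CPM in siCtrl, 4.74 and 3.89 CPM in siPaf1, 0 and 0.70 CPM in siCdc73 and 20.9 CPM in siSki8. H3 ends were at 7.46 and 12.2 CPM in siCtrl against 1.51 and 1.19 CPM in siCdc73, and H4 ends at 7.59 and 6.94 CPM against 2.08 and 1.47 CPM. In each of these 4 types both siCdc73 libraries lay below both siCtrl libraries, but how often all sites split in this way was not counted. Most of the H2A reads at the stem-loop in siCtrl were from Hist1h2ag, so a type can stand for mainly a single gene. Linker H1 genes together had little at the stem-loop in any library (0 to 1.33 CPM) and most downstream, at 10.2 and 10.0 CPM in siCtrl, 4.87 and 3.51 CPM in siPaf1, 33.6 and 26.97 CPM in siCdc73 and 12.8 CPM in siSki8. Most of this was Hist1h1c, with 65 of 75 and 81 of 98 H1 downstream reads in siCtrl and 165 of 178 and 368 of 386 in siCdc73. Hist1h1b went the other way, with 2 and 5 reads at its stem-loop and 0 and 0 downstream in siCtrl. Downstream ends of the core types were higher in both siCdc73 libraries than in either siCtrl library for H2A (16.4 and 26.6 CPM against 6.37 and 9.09 CPM), H2B (21.5 and 31.7 against 14.4 and 13.99), H3 (9.45 and 7.13 against 1.90 and 1.94) and H4 (12.5 and 11.5 against 6.65 and 4.60). Hist3h2a, which had no stem-loop end, gave 39 of the 47 and 69 of the 89 H2A downstream reads in siCtrl. In siCdc73 it gave 82 of 87 and 366 of 381, so the H2A rise was that of this gene.

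The shift also stood within single genes. PASS reads at both a stem-loop end and a downstream site were found in 26 genes, and 19 of them had at least 5 such reads in siCtrl and in siCdc73. The downstream share was higher in siCdc73 in 15 of the 19, equal in 4 and lower in 0, with a median of 24.2% in siCtrl and 98.0% in siCdc73. For siPaf1 it was higher in 7, lower in 5 and equal in 5 of 17 genes, and for siSki8 higher in 7 and lower in 6 of 13. Hist1h3a, an H3 gene, had 4 and 17 reads at its stem-loop end in siCtrl, 12 and 11 in siPaf1, 0 and 1 in siCdc73 and 14 in siSki8. At the site only 50 bases past the same loop it had 1 and 2 reads in siCtrl, 4 and 4 in siPaf1, 23 and 35 in siCdc73 and 5 in siSki8, so siCdc73 was lowest at the stem-loop and highest 50 bases on. The H4 gene Hist1h4h had 3 and 10 reads at the stem-loop end in siCtrl and 0 and 0 in siCdc73, and 0 and 1 reads against 6 and 27 reads at a site 49 bases past the loop. At its stem-loop end siPaf1 had 15 and 7 reads and siSki8 had 10. Over all its downstream sites, the share was 7.14% in siCtrl, 40.5% in siPaf1, 100.0% in siCdc73 and 28.6% in siSki8. The siPaf1 and siSki8 shares were thus above siCtrl too.

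Sites were then tested singly with edgeR, in a fit of all 25118 sites that passed the filter, 41 of them in histone genes. Without the batch in the model, adjusted p fell under 0.05 for 0 histone sites and for 0.0% of all sites in each of the comparisons with siCtrl and in siPaf1 against siCdc73. At an unadjusted p under 0.05 there were 16 histone sites for siCdc73 (13.2% of all sites), 5 for siPaf1 (12.2%), 0 for siSki8 (2.54%) and 14 for siPaf1 against siCdc73 (8.14%). With the batch number of the labels as a block, 6 histone sites rose and 6 fell in siCdc73 (18.3% of all sites called), 1 rose and 7 fell in siPaf1 (16.8%), and 0 were called in siSki8 (0.832%; 1 at an unadjusted p under 0.05, 9.9% of all sites). Between siPaf1 and siCdc73, 2 sites were higher and 7 lower in siPaf1 with the block (10.9% of all sites called). When each library was left out of the blocked fit in turn, an alternative chosen after seeing the data, 4 of the 12 siCdc73 calls, 1 of the 8 siPaf1 calls and 5 of the 9 calls between them were made every time. Without the siCtrl library of batch 2, which leaves a single siCtrl library, fewer histone sites were called in both knockdowns, and fewer of all sites as well. The 14 stem-loop ends tested all had a lower fitted level in siCdc73 than in siCtrl, with a median log2 difference of -2.34 without the block, and 6 of them fell with it. Of 16 downstream sites, 15 had a higher fitted level, with a median of 1.71, and 4 rose with the block, while the median over all sites was 0.0. In siPaf1 the medians were -0.96 for stem-loop ends and -0.81 for downstream sites, of which 3 and 4 fell with the block and none rose. In siSki8 they were 0.33 and 0.11. Sites that passed the filter through the group in which they are high had to differ, so these counts describe the sites and are not separate evidence beside the sums over all sites.

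**Figure D2:**
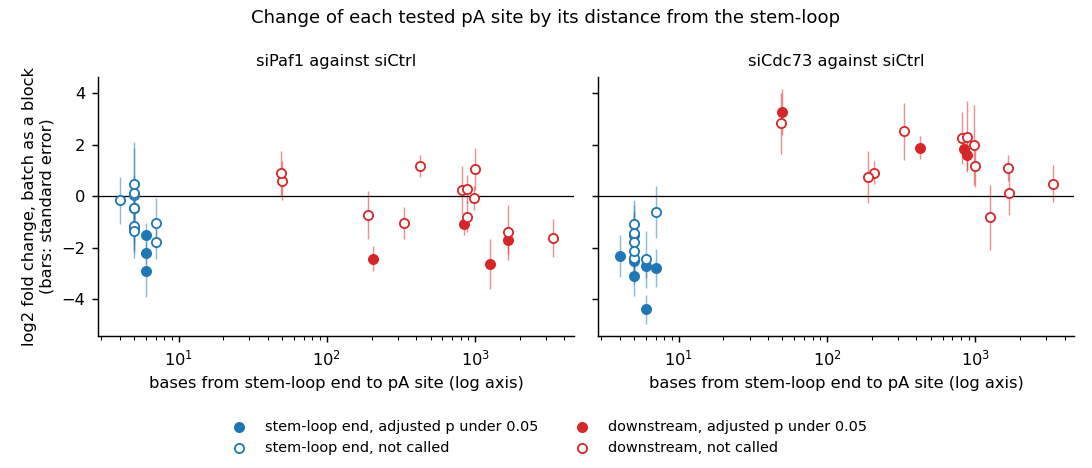
Log2 fold change of each tested histone pA site against siCtrl, with batch as a block, by its distance in bases past the stem-loop (log axis), for siPaf1 (left) and siCdc73 (right); bars are standard errors, blue marks stem-loop ends, red marks downstream sites, and filled points have an adjusted p under 0.05. In siCdc73 the 14 stem-loop ends lie below 0 and nearly all of the 16 downstream sites above it, while in siPaf1 the called sites of both classes lie below 0.

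The largest fall at a stem-loop was at the H2B gene Hist1h2bk, whose stem-loop end (6 bases past the loop shown above) had 48 and 147 reads in siCtrl, 26 and 51 in siPaf1, 0 and 7 in siCdc73 and 155 in siSki8. Every siCdc73 count was below every siCtrl count although the siCdc73 library of batch 2 was the deepest. Its log2 fold change in siCdc73 was -4.39 ± 0.57 (SE, adjusted p = 5.64e-10 by edgeR with the batch as a block; 0.139 without it). The H2A gene Hist1h2ag had 133 and 154 reads at its stem-loop end in siCtrl, 52 and 30 in siPaf1, 28 and 12 in siCdc73 and 103 in siSki8. It fell in siCdc73 by 2.71 ± 0.47 on the log2 scale (adjusted p = 2.46e-06 with the block, 0.357 without) and in siPaf1 by 2.19 ± 0.45 (7.13e-05 with the block, 0.449 without). The stem-loop ends of Hist1h2ai, Hist1h3h, Hist1h4d and Hist1h4b also fell in siCdc73 with the block, those of Hist1h4d and Hist1h4b in only 3 of the 7 blocked fits that left out a library. That of Hist1h4d had 18 and 9 reads in siCtrl, 15 and 14 in siPaf1, 1 and 1 in siCdc73 and 21 in siSki8. The stem-loop end of the H3 gene Hist1h3c had 8 and 16 reads in siCtrl, 0 and 0 in siPaf1, 1 and 0 in siCdc73 and 16 in siSki8. It fell in siPaf1 with the block (adjusted p = 0.0253, 0.321 without) but in only 2 of the 6 blocked fits that left out a library and tested it.

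The H2B gene Hist2h2be, in which no stem-loop match was found, gave the most 3'READS reads of all histone genes in the siPaf1 and siCdc73 libraries. Hist1h2ag gave the most in siCtrl and Hist1h2bk in siSki8. The main site of Hist2h2be, after the AATAAA shown above, had 80 and 66 reads in siCtrl, 167 and 348 in siPaf1, 597 and 1432 in siCdc73 and 106 in siSki8. Over the gene this was 10.99 and 6.74 CPM, 21.5 and 26.1 CPM, 119 and 102 CPM, and 12.9 CPM, so that the groups did not overlap and siPaf1 lay between siCtrl and siCdc73. The gene rose in siCdc73 by a log2 fold change of 3.72 ± 0.33 (adjusted p = 9.38e-06 with the block, 0.113 without) and in siPaf1 by 1.34 ± 0.32 (0.00793 with the block, 0.314 without). A lesser upstream site of the gene, at chr3:96027601, had 1 and 0 reads in siCtrl, 1 and 1 in siPaf1, 30 and 28 in siCdc73 and 1 in siSki8.

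The linker gene Hist1h1c moved in opposite directions in the 2 knockdowns. Its site 836 bases past the loop had 61 and 81 reads in siCtrl, 37 and 45 in siPaf1, 164 and 366 in siCdc73 and 96 in siSki8. Over the gene the level was 9.22 and 8.48 CPM in siCtrl, 4.87 and 3.36 CPM in siPaf1 and 31.2 and 25.9 CPM in siCdc73, with no overlap. Hist1h1c rose in siCdc73 (1.75 ± 0.32 on the log2 scale; adjusted p = 0.00132 with the block, 0.172 without) and fell in siPaf1 (by 1.19 ± 0.33; 0.0206 with the block, 0.334 without). The H2B genes Hist1h2be and Hist1h2bg were low in siPaf1 as well. The downstream site of Hist1h2be had 71 and 64 reads in siCtrl, 7 and 26 in siPaf1, 61 and 258 in siCdc73 and 42 in siSki8, and that of Hist1h2bg had 17 and 52 in siCtrl, 6 and 18 in siPaf1, 31 and 132 in siCdc73 and 12 in siSki8. With the block, Hist1h2be fell in siPaf1 by 2.05 ± 0.43 and Hist1h2bg by 1.86 ± 0.46 (adjusted p = 0.00404 and 0.0104; 0.214 and 0.233 without the block), and in siCdc73, where their blocked log2 differences were 0.90 ± 0.40 and 0.91 ± 0.43, neither passed the test (adjusted p = 0.122 and 0.143).

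Hist3h2a, an H2A gene outside the large clusters, was higher in both knockdowns in both batches. In 3'READS it had 5.29 and 7.05 CPM in siCtrl, 8.33 and 17.3 CPM in siPaf1, 15.5 and 25.6 CPM in siCdc73 and 9.05 CPM in siSki8, with both knockdown groups above siCtrl and overlapping each other. It rose in siCdc73 by 1.77 ± 0.34 on the log2 scale (adjusted p = 0.00194 with the block, 0.176 without), and its difference of 0.88 ± 0.34 in siPaf1 did not pass (0.0816 with the block). Of the H3 and H4 genes, Hist2h3c1 had 2 and 13 reads in siCtrl, 6 and 17 in siPaf1, 16 and 136 in siCdc73 and 6 in siSki8 (2.78 ± 0.63 in siCdc73; 0.00557 with the block, 0.215 without). The same reads were listed under Hist2h3c2-ps, so they cannot be assigned to either gene. Hist1h4k had 32 and 22 reads in siCtrl, 8 and 5 in siPaf1, 10 and 56 in siCdc73 and 38 in siSki8, and fell in siPaf1 (by 2.07 ± 0.65; 0.0377 with the block, 0.33 without).

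**Figure D3:**
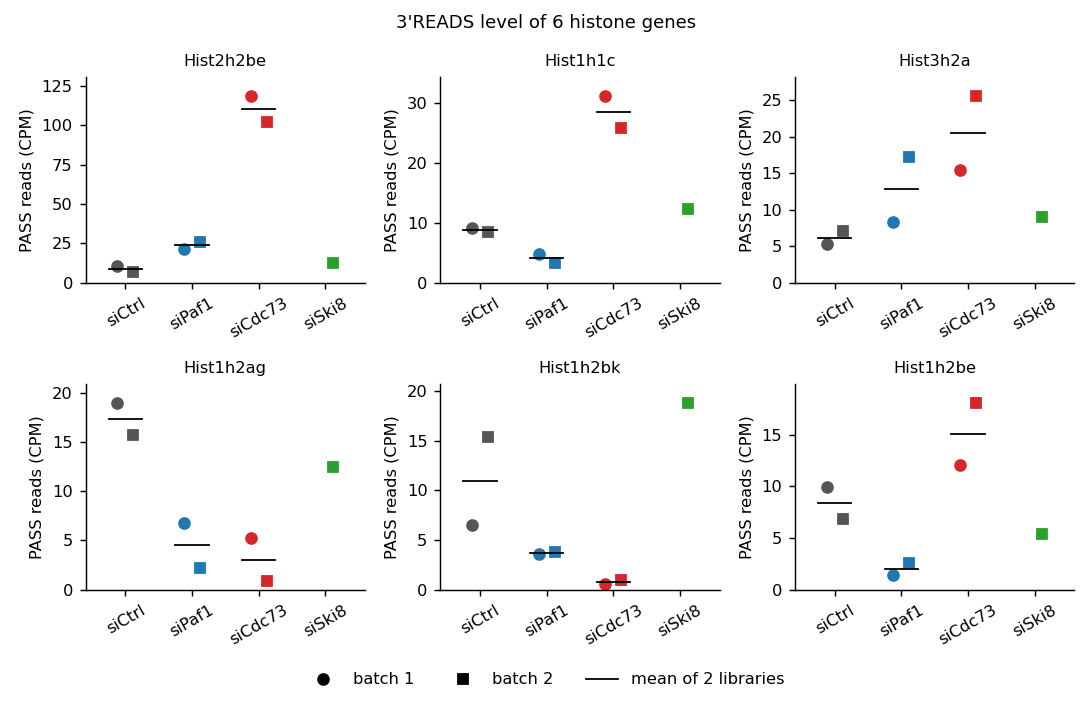
3'READS level (PASS reads in CPM, all sense sites of the gene) of 6 histone genes in each library; circles are batch 1, squares batch 2 and lines means of 2 libraries. Hist2h2be reaches 119 and 102 CPM in siCdc73 against 10.99 and 6.74 CPM in siCtrl, and Hist1h2bk and Hist1h2ag are lowest in siCdc73.

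Over whole genes, 33 histone genes passed the filter in 3'READS. All histone sites together summed to 106 and 114 CPM in siCtrl, 78.7 and 80.2 CPM in siPaf1, 232 and 224 CPM in siCdc73 and 121 CPM in siSki8, and neither knockdown group overlapped siCtrl. The siCdc73 excess was mostly H2B, at 142 and 136 CPM against 35.1 and 38.5 CPM in siCtrl, and Hist2h2be alone was 51.1% and 45.5% of all histone reads there. Hist2h2be is counted here by its symbol, and no exact or near stem-loop match was found in it. Whether it is made mainly in S phase was not tested. Without the batch, edgeR called 0 of the 33 in any comparison (0.0% of 12579 genes). At an unadjusted p under 0.05 there were 8 for siPaf1 (13.5% of all genes), 9 for siCdc73 (15.3%) 0 for siSki8 (3.33%) and 9 for siPaf1 against siCdc73 (10.3%). DESeq2 called 1, 5, 0 and 4 of them, against 3.92%, 5.67%, 0.0% and 1.73% of all genes. With the block, 1 rose and 7 fell in siPaf1 (18.8% of all genes called), 5 rose and 4 fell in siCdc73 (22.5%), 0 were called in siSki8 (0.151%; 1 at an unadjusted p under 0.05, 11.6% of all genes), and 1 was higher and 7 lower in siPaf1 than in siCdc73 (14.4%). Of the 9 siCdc73 calls, 5 were made in every blocked fit that left out a library (Hist1h1c, Hist1h2ag, Hist1h2bk, Hist2h2be and Hist3h2a). None of the 8 siPaf1 calls was. Fewer of them stood without either siCtrl library or without siPaf1 of batch 2. Those fits leave a single library in a group and also called fewer of all genes. The median log2 fold change over the 33 was -0.76 in siPaf1, -0.12 in siCdc73 and -0.08 in siSki8 without the block, against 0.06, 0.0 and -0.0009 over all genes. The median in siCdc73 thus sat near that of all genes while single histone genes went far in either direction, and it was 0.61 without the siCdc73 library of batch 2 and 0.84 without siSki8.

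In RNA-seq, histone reads in batch 2 were fewer than in siCtrl in siPaf1 and siCdc73 and, to a lesser extent, in siSki8. In batch 1 they were level with siCtrl in siPaf1 and higher in siCdc73. All histone genes together had 702 CPM in siCtrl, 247 CPM in siPaf1, 193 CPM in siCdc73 and 382 CPM in siSki8 in batch 2. In batch 1 they had 23.9 CPM in siCtrl, 22.8 CPM in siPaf1 and 52.4 CPM in siCdc73, from 153, 140 and 331 reads. The order of the groups thus differed between batches, with siCdc73 lowest in batch 2 and highest in batch 1. It was highest in batch 1 for each type but H3, in which siCtrl was at 1.56 CPM and siCdc73 at 1.27 CPM. Single genes gave most of these batch 1 rises. Hist3h2a had 29 of 62 H2A reads in siCtrl and 83 of 116 in siCdc73. Hist2h2be had 5 of 17 and 22 of 30 H2B reads. Hist1h4i had 11 of 34 and 73 of 102 H4 reads, and Hist1h1d had 28 of 30 and 66 of 75 H1 reads. In batch 2, H1 was at 331 CPM in siCtrl, 76.5 CPM in siPaf1, 49.5 CPM in siCdc73 and 147 CPM in siSki8, the largest part in each but siCdc73, where H4 (62.1 CPM) and H2A (58.8 CPM) exceeded it.

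**Figure D4:**
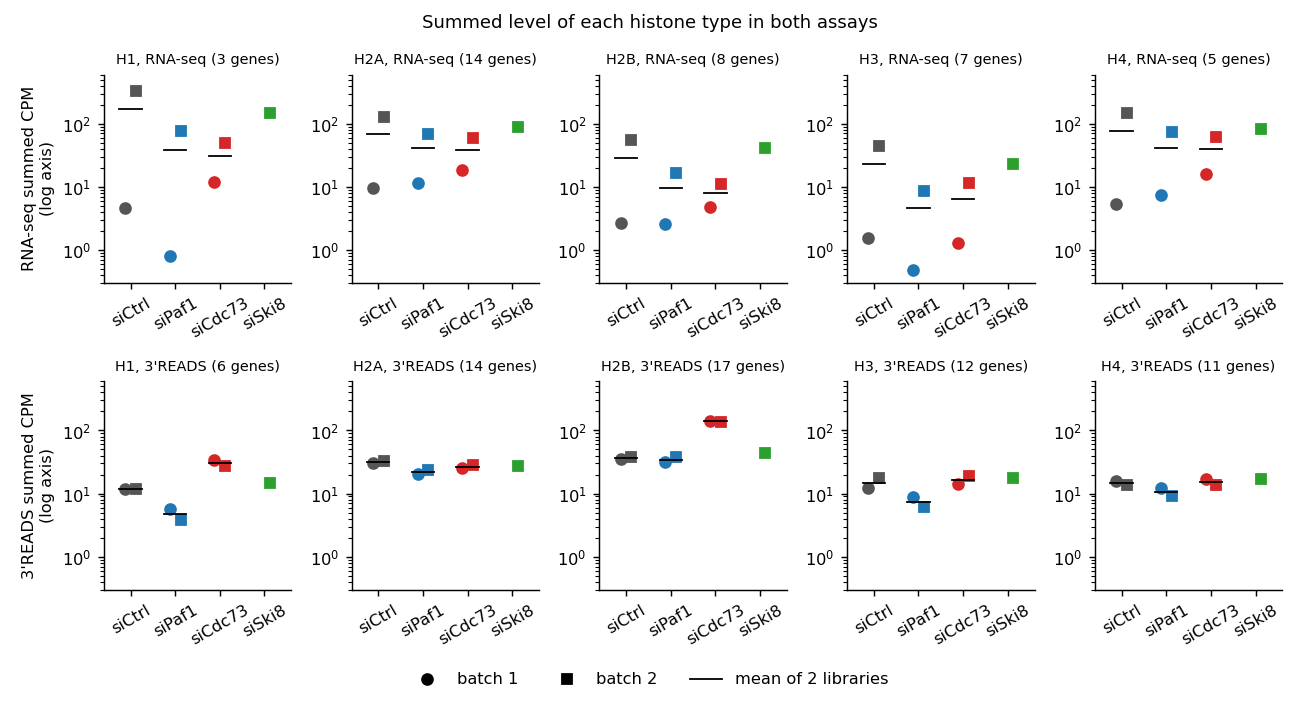
Summed CPM of each histone type in RNA-seq (top) and 3'READS (bottom) in every library, on a log axis; circles are batch 1, squares batch 2, lines means of 2 libraries, and panel titles give the number of genes listed. RNA-seq levels differ more between batches than between groups, whereas the 2 batches lie close together in 3'READS.

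Without the batch in the model, edgeR called 0 of the 24 histone genes tested in RNA-seq in any comparison (0.0% of 6521 genes). At an unadjusted p under 0.05 there were 1 for siPaf1, 0 for siCdc73, 0 for siSki8 and 1 for siPaf1 against siCdc73, against 17.7%, 21.1%, 5.54% and 13.2% of all genes. DESeq2 called 0, 0, 0 and 1 of them (5.98%, 8.36%, 0.0767% and 2.5% of all genes). With the block, 12 of 24 fell and 0 rose in siPaf1 (32.5% of all genes called, 16.2% fell), 6 fell and 2 rose in siCdc73 (39.9% called), 0 were called in siSki8 (5.41%; 0 at an unadjusted p under 0.05, 20.6% of all genes), and 1 differed between siPaf1 and siCdc73 (28.2%). Within batch 1, 13 of the 24 were below siCtrl in siPaf1 and 6 in siCdc73. Within batch 2, 23 and 21 of them were below, with medians of -1.68 and -1.61 on the log2 scale against -0.66 and 0.87 in batch 1. In siSki8, within batch 2, 21 of the 24 were below siCtrl too, with a smaller median of -0.31. None of the 12 siPaf1 and 8 siCdc73 calls was made in every blocked fit that left out a library. Without the siCtrl library of batch 2, which leaves a single siCtrl library, most of these calls were lost and 2 of each changed sign. Fewer of all genes were called there too. Of the 12 siPaf1 calls, 5 stood without siSki8 (32.1% of all genes called). Most were lost without siPaf1 of batch 2, where the share of all genes called changed little. Most of the 8 siCdc73 calls were lost without siCdc73 of batch 2, where fewer of all genes were called as well. The median of the fit without the block went from -1.52 to 1.66 in siPaf1 and from -1.43 to 1.85 in siCdc73 without siCtrl of batch 2, but that fit sets the siCtrl library of batch 1 against knockdowns of both batches and so carries the gap between batches.

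The linker gene Hist1h1d had the most reads of any histone gene in each batch 2 library, and Hist3h2a in each batch 1 library. Hist1h1d had 28 and 1802 reads in siCtrl, 3 and 192 in siPaf1, 66 and 155 in siCdc73 and 1053 in siSki8. Per length its batch 2 siCtrl level of 173 RPKM compared with 65.5 RPKM for the H4 gene Hist1h4d and 17.1 RPKM for Hist3h2a. Hist1h1d was lower in siPaf1 than in siCtrl in both batches and fell with the block by 2.05 ± 0.48 (adjusted p = 0.00144, 0.645 without the block). In siCdc73 it was higher than siCtrl in batch 1 and lower in batch 2, and did not pass the test (adjusted p = 0.214 with the block). Hist1h2bk had 8 and 175 reads in siCtrl, 4 and 25 in siPaf1, 2 and 14 in siCdc73 and 183 in siSki8. It fell with the block in siPaf1 (by 1.42 ± 0.43, adjusted p = 0.0109) and in siCdc73 (by 2.24 ± 0.46, adjusted p = 0.000259; 0.643 and 0.394 without the block), and was below siCtrl in each batch. The H2A gene Hist1h2ak had 19 and 227 reads in siCtrl, 9 and 54 in siPaf1, 7 and 28 in siCdc73 and 175 in siSki8, and was likewise below siCtrl in each batch of both knockdowns (with the block it fell by 1.73 ± 0.39 in siCdc73, adjusted p = 0.000768, 0.479 without the block).

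Several of the other named genes took their RNA-seq call from batch 2 alone. The H3 gene Hist2h3b had 0 and 47 reads in siCtrl, 0 and 1 in siPaf1, 0 and 1 in siCdc73 and 18 in siSki8. Hist1h4d had 8 and 319 reads in siCtrl, 11 and 49 in siPaf1, 6 and 53 in siCdc73 and 238 in siSki8. In both, the knockdowns were far below siCtrl in batch 2 and about level with it in batch 1. The H3 gene Hist1h3g had 2 and 51 reads in siCtrl, 0 and 3 in siPaf1, 2 and 7 in siCdc73 and 37 in siSki8, and Hist1h3d had 4 and 41 in siCtrl, 1 and 3 in siPaf1, 4 and 10 in siCdc73 and 40 in siSki8. Hist1h3f, the H3 gene with the highest mean level, had 3 and 97 reads in siCtrl, 2 and 11 in siPaf1, 0 and 16 in siCdc73 and 69 in siSki8, and the H2A gene Hist1h2ai had 3 and 100 in siCtrl, 0 and 13 in siPaf1, 10 and 15 in siCdc73 and 104 in siSki8. Each of these 4 genes had at most 10 reads in any batch 1 library. The H4 gene Hist4h4 had 12 and 234 reads in siCtrl, 27 and 101 in siPaf1, 20 and 87 in siCdc73 and 187 in siSki8, and did not pass the test in any of these comparisons with or without the block (blocked adjusted p = 0.62, 0.847 and 0.734).

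A pair of genes rose in siCdc73 RNA-seq with the block. Hist3h2a had 4.54 and 18.0 CPM in siCtrl, 9.43 and 23.2 CPM in siPaf1, 13.1 and 30.5 CPM in siCdc73 and 12.3 CPM in siSki8 (1.23 ± 0.32 on the log2 scale in siCdc73; adjusted p = 0.00324 with the block, 0.482 without). The H4 gene Hist1h4i had 11 and 33 reads in siCtrl, 4 and 3 in siPaf1, 73 and 23 in siCdc73 and 27 in siSki8 (1.48 ± 0.51 on the log2 scale in siCdc73; adjusted p = 0.0215 with the block, 0.317 without). It was higher in siCdc73 than in siPaf1 in both batches, and the difference between the 2 knockdowns was -3.18 ± 0.60 for siPaf1 relative to siCdc73 (adjusted p = 0.000252 with the block, 0.216 without). In 3'READS the site of Hist1h4i 330 bases past the loop, after the ATTAAA shown above, had 4 and 0 reads in siCtrl, 0 and 0 in siPaf1, 12 and 29 in siCdc73 and 3 in siSki8 (adjusted p = 0.1 with the block for siCdc73).

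**Figure D5:**
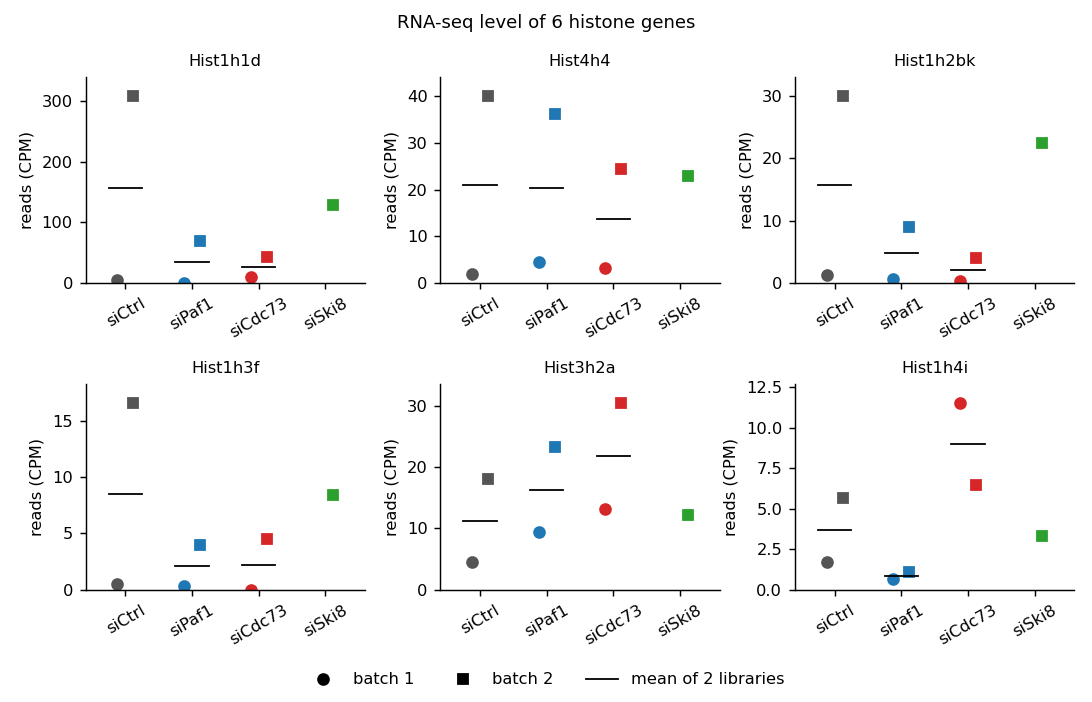
RNA-seq level (reads in CPM) of 6 histone genes in each library; circles are batch 1, squares batch 2 and lines means of 2 libraries. Batch 1 lies near 0 for Hist1h1d, Hist4h4, Hist1h2bk and Hist1h3f, while Hist3h2a and Hist1h4i have readable levels in both batches.

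Polyadenylated ends were set against RNA-seq reads in the 29 genes listed by both assays. The log2 ratio of summed 3'READS CPM to summed RNA-seq CPM was 0.86 and -3.81 in siCtrl, 1.08 and -2.09 in siPaf1, 1.55 and -0.38 in siCdc73 and -2.64 in siSki8. In batch 2 histone genes of siCtrl, siPaf1 and siSki8 thus lay below the median of 5130 genes (-1.74, -1.62 and -1.50), and those of siCdc73 lay above it (-1.61). In batch 1 they lay above it in each group (-2.14 in siCtrl, -2.04 in siPaf1 and -2.08 in siCdc73). Over all 29 genes, Hist2h2be included, the ratio was highest in siCdc73 and lowest in siCtrl in both batches. H2B, the type that holds Hist2h2be, had this order too, from 2.77 and -1.24 in siCtrl to 4.63 and 3.19 in siCdc73. That gene alone gave 119 and 102 CPM of ends in siCdc73 against 10.99 and 6.74 CPM in siCtrl, and the ratio was not taken without it. The order over all 29 genes may therefore be that of Hist2h2be alone, in batch 1 above all. In batch 1 the siCdc73 ratio was below that of siCtrl for H1 (-2.73 against -1.09), H2A (0.04 against 0.09) and H4 (-1.45 against 0.06). It was above it for H3 (2.40 against 2.03). By type in siCtrl of batch 2, H1 was lowest at -6.93, then H4 at -4.87, H2A at -3.19, H3 at -3.04 and H2B at -1.24. At least 10 reads per library on average in both assays were found for 7 genes. Their mean siCtrl ratios were 0.67 for Hist1h2bk, 0.37 for Hist1h3g, 0.10 for Hist1h2ai, -0.57 for Hist3h2a, -1.12 for Hist1h4i, -2.38 for Hist1h4d and -4.27 for Hist1h1d, and each was lower in batch 2 than in batch 1. In a joint fit of both assays with an interaction term, edgeR called 0 of 25 histone genes in any comparison without the batch (0.0% of 6482 genes). None of the 25 reached an unadjusted p of 0.05 there, against 2.1% of all genes for siPaf1, 1.73% for siCdc73, 0.679% for siSki8 and 1.31% for siPaf1 against siCdc73. The fit with the block called 0 as well (0.185%, 0.386%, 0.0% and 0.278% of all genes in the same order), and in it 0, 2, 0 and 1 histone genes reached an unadjusted p of 0.05 (6.85%, 5.86%, 2.85% and 5.29% of all genes). Over the 25, the median interaction without the block was 0.66 for siPaf1 and 1.01 for siCdc73, and it became -2.23 and -2.24 without the RNA-seq siCtrl library of batch 2, a fit that again carries the gap between batches.

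Other genes of the pathway were taken from prepared lists. Of 17 listed factors of histone 3' end processing, 16 were tested in 3'READS. With the block, 2 rose and 4 fell in siCdc73, 0 rose and 1 fell in siPaf1 and none was called in siSki8, against 22.5%, 18.8% and 0.151% of all genes, and without it none was called. Lsm11, a subunit of the U7 small nuclear RNP, had 24.95 and 16.9 CPM in siCtrl, 15.8 and 8.30 CPM in siPaf1, 7.94 and 3.00 CPM in siCdc73 and 12.6 CPM in siSki8, and fell in siCdc73 (by 1.93 ± 0.34, adjusted p = 0.00117). Cpsf2, which encodes the CPSF100 subunit of the cleavage complex, had 142 and 267 CPM in siCtrl, 153 and 312 CPM in siPaf1, 46.9 and 50.9 CPM in siCdc73 and 157 CPM in siSki8, and fell in siCdc73 (by 1.88 ± 0.30, adjusted p = 0.000517). Both were lower in siCdc73 than in siCtrl in each batch. Without the block, adjusted p was 0.279 for Lsm11 and 0.166 for Cpsf2. Cpsf3, the cleavage endonuclease, fell in siCdc73 in 3'READS (by 0.91 ± 0.27, adjusted p = 0.0261) and in RNA-seq (by 1.20 ± 0.23, adjusted p = 0.000142), and Eri1, an exonuclease that trims histone mRNA ends, fell in siCdc73 (by 0.94 ± 0.28, adjusted p = 0.0258) and in siPaf1 (by 1.62 ± 0.29, adjusted p = 0.00124). Cdk9, a kinase of transcription elongation, rose in siCdc73 (1.44 ± 0.27, adjusted p = 0.00165). Slbp had 2.31 and 4.60 CPM in siCtrl, 5.13 and 4.64 CPM in siPaf1, 6.99 and 8.38 CPM in siCdc73 and 8.45 CPM in siSki8, and rose just past the threshold in siCdc73 (1.22 ± 0.42, adjusted p = 0.0494).

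Of 9 processing factors tested in RNA-seq, 3 fell in siCdc73 with the block, namely Lsm11 (by 1.25 ± 0.38), Casp8ap2, which acts with the U7 snRNP (by 1.21 ± 0.24), and Cpsf3. In siPaf1 the scaffold gene Sympk rose (0.67 ± 0.22) and Mif4gd, which binds Slbp (by 1.47 ± 0.43), and Cdk2, an S-phase kinase (by 1.25 ± 0.28), fell. That is 3 of 9 in each knockdown, against 39.9% of all genes called in siCdc73 and 32.5% in siPaf1, and without the block 0 of the 9 were called. The part of these factors in the results on histone ends was not tested. Of the listed S-phase genes, 18 of 18 fell with the block in siPaf1 and in siCdc73 in RNA-seq and 0 in siSki8, against 16.2%, 20.5% and 2.5% of all genes. In 3'READS 25 and 22 of 30 fell and 0 in siSki8, against 9.08%, 11.8% and 0.0715% of all genes. Without the block edgeR called 0 of them. At an unadjusted p under 0.05 in that fit, 18 and 16 of these S-phase genes fell in RNA-seq (8.96% and 11.2% of all genes) and 18 and 20 in 3'READS (6.46% and 8.42%). Their summed RNA-seq level was 5470 and 6232 CPM in siCtrl, 1999 and 1561 CPM in siPaf1, 2254 and 1542 CPM in siCdc73 and 5629 CPM in siSki8. They were thus below siCtrl in siCdc73 of both batches. The histone genes in siCdc73 were at 193 CPM against 702 CPM in batch 2 and at 52.4 CPM against 23.9 CPM in batch 1. The batch 1 levels came from only 331 and 153 reads. Among these, Hist3h2a had 83 against 29 reads and Hist1h4i had 73 against 11. The part of S-phase genes in the histone results was not tested either. Histone variant genes made outside S phase gave no common direction in 3'READS. With the block 1 rose and 3 fell of 11 in siPaf1 (18.8% of all genes called), and 4 rose and 2 fell in siCdc73 (22.5%). H2afx, whose gene carries the stem-loop as well, had 8.14 and 15.1 CPM in siCtrl, 1.28 and 2.32 CPM in siPaf1, 10.0 and 14.5 CPM in siCdc73 and 15.6 CPM in siSki8, and fell in siPaf1 (by 2.63 ± 0.38, adjusted p = 0.000237 with the block, 0.194 without).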

How the data were processed

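The authors removed ribosomal RNA and made strand-specific RNA-seq libraries, and made 3'READS libraries of poly(A)+ RNA; both were mapped to mm9 with Bowtie2 in local mode, keeping uniquely mapped reads with a mapping score above 10, so reads shared by near-identical histone copies are lost or split. The authors deposited read counts per RefSeq transcript (coding region only for coding genes) beside RPKM, and PASS read counts per pA site. The deposited counts were used for all tests, and the deposited RPKM only to compare levels between genes. No per-sample column was left unmatched (0). ChIP-seq files were not used here.

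Per gene, the transcript with the highest mean count was kept for RNA-seq and sense sites were summed for 3'READS, with upstream antisense sites kept apart. Counts were tested with the quasi-likelihood test of edgeR 4.0.16 (R 4.3.3, limma 3.58.1) across all genes or sites that passed edgeR's filter on low counts, with TMM scaling, all 7 libraries and group as the only term, so that the lone siSki8 library is assumed to vary like the others; p-values were adjusted by Benjamini-Hochberg over all features tested, and calls are adjusted p under 0.05. Alternatives were the batch as a block, DESeq2 1.42.0, library size alone, no filter, and leaving out each library, the last also within the blocked fit. The labels say that the number of a library is its batch; deviations from the group mean correlated between same-numbered libraries at r of 0.620 to 0.748 in RNA-seq and 0.432 to 0.610 in 3'READS, and the blocked value is printed beside results whose call it changed. Fitted spread (BCV) went from 0.397 to 0.179 in RNA-seq and from 0.515 to 0.247 in 3'READS genes with the block. Scripts were tested on simulated data. Sequences came from NCBIM37 with the GENCODE vM1 annotation (pysam 0.24.0); intervals and permutation tests from scipy 1.17.1; the remaining steps used pandas 2.3.3, numpy 2.4.6 and matplotlib 3.10.9 under Python 3.11.15. Log2 ratios of single libraries used 0.5 reads as pseudocount.

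The histone genes and the other lists were chosen with earlier results of these data known. Named genes were, in each assay and type, the gene with the highest mean CPM; in each comparison up to 6 called genes or sites with the smallest blocked p; and the extremes of the ratio of ends to RNA-seq reads. Hist1h3a, Hist1h4h, H2afx and the stem-loop ends given by name only were added after their values were seen.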

Additional observations from a re-analysis of the deposited data

Results flagged for a closer look

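The difference between siPaf1 and siCdc73 was itself tested, in the edgeR fit with the batch as a block, and the following log2 differences (siPaf1 minus siCdc73) passed an adjusted p of 0.05 there; without the block their adjusted p lay between 0.216 and 0.589, so none passed. In RNA-seq it was -3.18 for Hist1h4i. In 3'READS by gene it was -2.94 for Hist1h1c, -2.37 for Hist2h2be, -2.95 for Hist1h2be, -2.78 for Hist1h2bg, -2.12 for Hist1h4k and -2.48 for Hist2h3c1 and Hist2h3c2-ps, which list the same reads, and 1.86 for Hist1h2bk. Among sites other than stem-loop ends it was -2.92 for Hist1h1c, -3.34 for Hist1h2be, -2.79 for Hist1h2bg, -3.57 for Hist1h4i, -2.67 for Hist1h3a, and -2.31 and -3.64 for the main and lesser sites of Hist2h2be. At stem-loop ends it was 2.88 for Hist1h2bk and 2.64 for Hist1h2ai. The sites other than stem-loop ends were thus higher in siCdc73 and these 2 stem-loop ends higher in siPaf1.

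Upstream antisense sites, which no comparison above used, were listed for 11 histone genes at 17 positions. They held 4 and 1 reads in siCtrl, 11 and 15 in siPaf1, 22 and 27 in siCdc73 and 6 in siSki8, and were above the siCtrl libraries (0.543 and 0.102 CPM) with a mean of 1.27 CPM in siPaf1 and 3.02 CPM in siCdc73 and a value of 0.724 CPM in siSki8. Reads are few, and the difference was not tested.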

How the results depend on the processing

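With 2 libraries per group and 1 for siSki8, no histone gene or site passed edgeR's test without the batch, and the number called depended on the model. The replicate block raised the calls from 0 to 12, 8 and 1 in RNA-seq (siPaf1, siCdc73, and siPaf1 against siCdc73), to 8, 9 and 8 in 3'READS genes and to 8, 12 and 9 in 3'READS sites; it changed no other count of calls. DESeq2 called 1 histone gene in RNA-seq (siPaf1 against siCdc73), and 1, 5 and 4 in 3'READS genes. Without the filter on low counts, 1 gene and 3 sites were called for siCdc73 and 6 sites for siPaf1 against siCdc73. Leaving out each library without the block gave 0 calls throughout, which says nothing of stability since none passed to begin with. Leaving out each library with the block, chosen after seeing the data, gave 0 to 11, 2 to 12 and 0 to 3 calls in RNA-seq (in the order above), 2 to 10, 6 to 12 and 4 to 8 in 3'READS genes and 1 to 7, 4 to 14 and 5 to 10 in 3'READS sites, with 0 for siSki8. The lowest siPaf1 counts were those without siCtrl of batch 2, as were the lowest siCdc73 counts in RNA-seq and sites, and the lowest siCdc73 count in 3'READS genes was that without siCdc73 of batch 2. Other counts off by more than 1.5 times were, for siPaf1, 3 genes, 2 sites and 4 RNA-seq genes without siPaf1 of batch 2, 5 genes and 3 sites without siCtrl of batch 1, 5 sites without siPaf1 of batch 1 and 5 RNA-seq genes without siSki8; for siCdc73, 3 RNA-seq genes and 6 sites without siCdc73 of batch 2; and for siPaf1 against siCdc73, 4 genes and 5 sites without siCdc73 of batch 2 and 5 genes without siPaf1 of batch 2, besides the single RNA-seq call, which became 0 without siCdc73 of batch 1 and 2 or 3 without siCtrl, siPaf1 or siCdc73 of batch 2 or siCtrl or siPaf1 of batch 1.

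In siPaf1 and siCdc73 the share of all features called also fell when either siCtrl library was left out of the blocked fit. Medians over histone genes moved more. Leaving out a library moved them in RNA-seq to -3.63 to 1.66 for siPaf1, -2.80 to 1.85 for siCdc73 and -0.33 to 3.94 for siSki8, with the highest value in each case without siCtrl of batch 2, a fit that holds the gap between batches. In 3'READS genes the ranges were -1.35 to -0.66, -0.59 to 0.84 and -0.13 to 0.089, the second above 0 without siCdc73 of batch 2 or siSki8, and for ends per RNA-seq read -2.23 to 2.91, -2.24 to 2.33 and -3.46 to 0.43, with the lowest value in each case without the RNA-seq siCtrl library of batch 2. In siSki8 the 3'READS median of -0.08 became 0.19 with the block, 0.041 with library size alone and 0.015 without the filter. Library size alone moved the median of all genes to -0.18 and -0.35 in RNA-seq of siCdc73 and siSki8 and to 0.16 in 3'READS of siPaf1. Leaving out a library moved the RNA-seq log2 fold change in siPaf1 to -7.66 to 2.97 for Hist1h1d, -4.10 to 1.66 for Hist1h2bk, -4.05 to 0.44 for Hist2h3b, -3.84 to 0.26 for Hist1h3g and -4.76 to 1.58 for Hist1h2ai, and in siCdc73 to -4.60 to 0.77 for Hist1h2bk, -3.87 to 0.76 for Hist1h2ak, -4.05 to 0.43 for Hist2h3b and -4.45 to 2.60 for Hist1h4d; the positive value is that without siCtrl of batch 2. Counting the near matches to the stem-loop, a motif chosen after seeing the data, raised the share of histone reads at stem-loop ends in siCtrl of batch 2 from 50.8% to 54.8%, and lowered the share without a stem-loop match from 16.01% and 12.3% to 11.8% and 7.91% in siCtrl and from 15.2% to 11.8% in siSki8. The other 80 shares moved less than their interval under that motif, a 10-base limit, a mismatched pair or, also chosen after seeing the data, a match allowed before the annotated stop codon.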
